A study of Mus musculus with 9 samples.

Results

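The transcriptional response of CD4+ T cells to anti-CD3 and anti-CD28 antibodies was described from 3 libraries of stimulated cells and 3 libraries of cells kept in medium. A gene was included when it reached at least 1 TPM (a transcript level scaled for transcript length and for the total of the library) in at least 3 of these 6 libraries, which held for 15081 of the 55487 genes in the table. The cells had been enriched for CD4+ T cells by negative selection, per the labels, from spleens of wild type C57BL/6 mice carrying Trail-r+/+, female and 6 to 7 weeks old per the study's methods, and they were cultured in RPMI-1640 with 10% fetal calf serum. The stimulated cells had been exposed for 24 h to 3 µg/ml of antibody against CD3 together with 2 µg/ml of antibody against CD28. The medium cells had received no treatment, and how long they stayed in culture is not given in the sources used here. A group of 3 libraries that had TRAIL at 10 µg/ml added to the same antibodies contributed only to the estimate of the spread between libraries. The labels do not say that the libraries of a group came from separate animals or cultures, so the p-values measure the spread between these libraries, which may be technical.

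CD3 is the signaling part of the T cell receptor complex, and CD28 is the costimulatory receptor that a T cell needs beside it to become fully activated. Antibodies that bind both replace the antigen-presenting cell: calcium, MAP kinase and NF-κB signaling start within minutes, immediate early transcription factors follow, and within a day a resting T cell grows, turns to glycolysis, makes cytokines and prepares to copy its DNA. Genes that hold a naive T cell at rest and direct its traffic through lymphoid organs are usually switched off in the same period.

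The 6 libraries separated by treatment. The correlation of log2(TPM + 1) across the tested genes was 0.983 to 0.993 between libraries of the same group and 0.808 to 0.842 between groups, a description across genes that are not independent replicates. Between 14866 and 14909 genes reached 1 TPM in the medium libraries and between 13691 and 14015 in the stimulated libraries. TPM keeps no record of depth, so the reads behind each value are unknown. A pair of libraries stood apart from their groups by transcript length. When protein-coding genes were divided into 5 equal groups by exon length, stimulated replicate 1 lay 0.11 above the mean of the other stimulated libraries in the shortest group and 0.47 below it in the longest group (median difference of log2 values), whereas stimulated replicates 2 and 3 differed by at most 0.04 in any group. Medium replicate 2 deviated the other way, from -0.05 in the shortest genes to 0.14 in the longest. Without both of these libraries, a setting chosen after seeing the data, 1922 genes rose and 2725 fell, and such counts are given beside several of the lists they changed.

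**Figure D1:**
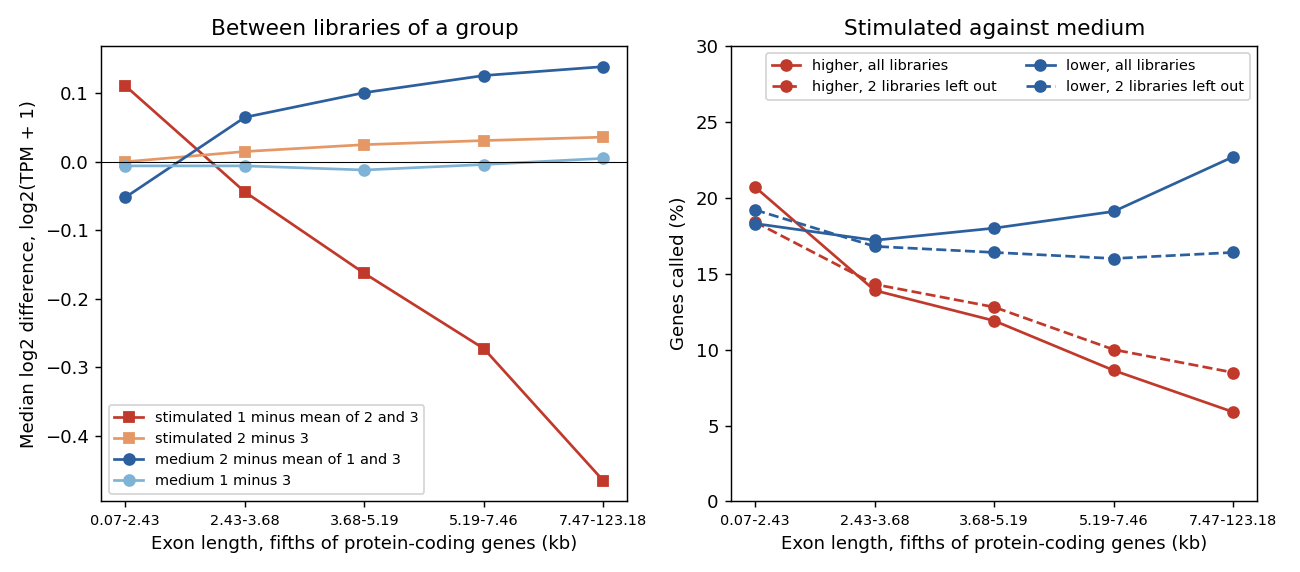
Left, median difference in log2(TPM + 1) between libraries of the same group (y axis) for protein-coding genes in 5 equal groups by exon length (x axis, shortest to longest). Stimulated replicate 1 slopes from 0.11 to -0.47 and medium replicate 2 from -0.05 to 0.14. Right, the percentage of genes called higher or lower after stimulation in the same length groups with all 6 libraries (solid) and without those 2 libraries (dashed). The share called higher falls from 20.7% in the shortest to 5.89% in the longest genes with all libraries, and from 18.4% to 8.49% without the 2. The share called lower goes from 18.3% to 22.7% with all libraries and from 19.2% to 16.4% without the 2, so its trend with length turns.

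More genes fell than rose after stimulation. A gene was called when limma's Benjamini-Hochberg adjusted p was below 0.05 and the log2 fold change was at least 1 in either direction, and 4910 genes (32.6% of those tested) met this. Of these, 1919 rose (12.7%) and 2991 fell (19.8%). List counts below are read beside these shares. Every stimulated library lay above every medium library for 4609 genes (30.6%), and every stimulated library lay below for 6426 (42.6%). With no limit on the fold, 4441 genes were higher (29.4%) and 6039 lower (40%) at the same adjusted p. Rises made up 39.1% of the calls on the deposited scale and 50.1% after quantile scaling, under which the median log2 difference over all tested genes was 0.03 in place of -0.14, so list medians below are read beside -0.14. No call changed direction under any scaling. Folds in the text are ratios of mean TPM, log2 fold changes are on the log2(TPM + 1) scale with their standard error from limma, and library values follow the order of replicates 1, 2 and 3. The median log2 fold change was 1.46 among the genes that rose and -1.60 among those that fell. A rise of at least 3 on the log2 scale was seen for 141 genes and a fall of that size for 416.

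**Figure D2:**
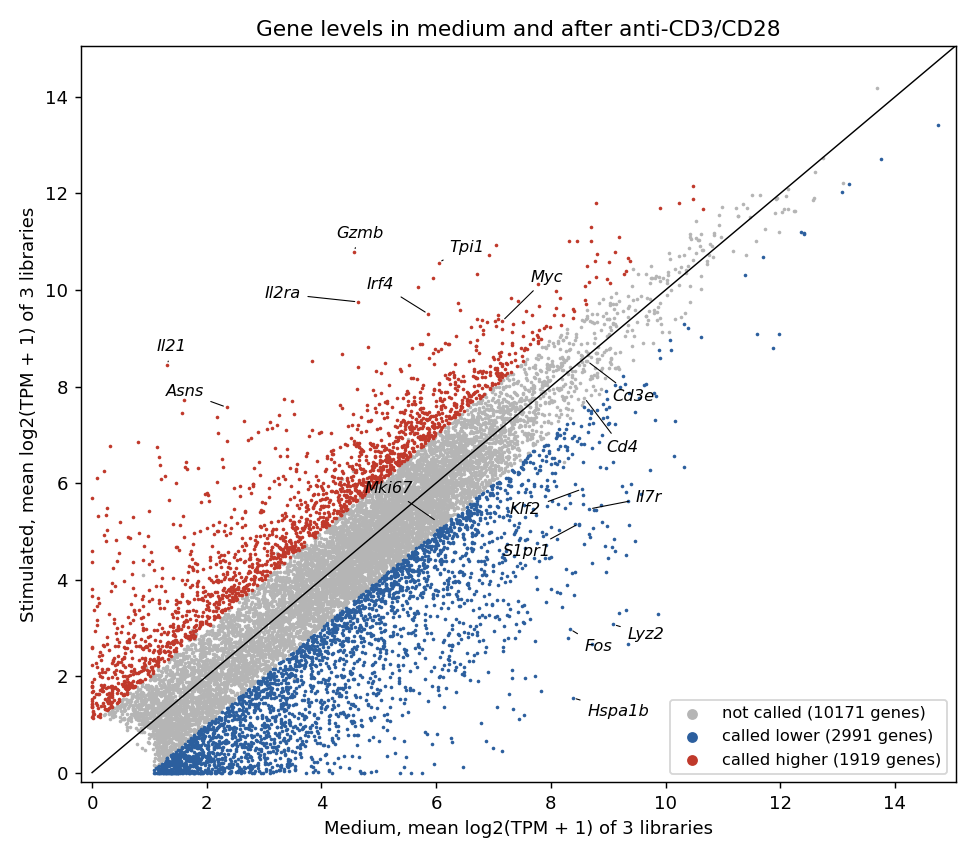
Mean log2(TPM + 1) of each of 15081 genes in the 3 medium libraries (x axis) and the 3 stimulated libraries (y axis). The 1919 genes called higher are red, the 2991 called lower are blue, the 10171 not called are grey, and the diagonal marks equal levels. *Gzmb*, *Tpi1* and *Il2ra* lie far above the diagonal, *Hspa1b*, *Fos* and *Lyz2* far below it, and *Cd3e* near it.

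Transcripts of other spleen cells were present in the medium libraries and fell with stimulation. They moved with every comparison of the 2 groups given below, and their part in those results was not tested. The T cell markers held 0.540% to 0.594% of all TPM in the medium libraries and 0.496% to 0.533% in the stimulated ones. All 16 B cell markers fell, and their summed share went from 0.730% to 0.802% of TPM in medium down to 0.0788% to 0.0870%. *Cd79a*, a signaling chain of the B cell receptor, read 504, 593 and 568 TPM in medium and 21.9, 25.7 and 22.2 TPM after stimulation, so the groups were far apart. All 17 macrophage markers fell (summed share 0.191% to 0.229% against 0.00915% to 0.00972%), as did all 19 neutrophil and monocyte markers. *Lyz2*, the lysozyme of myeloid cells, read 630, 467 and 539 TPM in medium and 7.56, 8.77 and 6.11 TPM after stimulation, which was 72.9-fold lower. Of 16 erythroid markers 15 were tested and 14 fell, and *Slc4a1*, the anion exchanger of red cells, was listed at 0 in all 3 stimulated libraries. The filter was passed through the medium group alone, where these genes were high, by 5 of the macrophage, 9 of the neutrophil and monocyte and 7 of the erythroid markers, and 5 of the dendritic cell markers also passed it through 1 group alone, so nothing is read from their counts. Of the plasma cell and immunoglobulin markers 12 of 13 fell, as did 10 of 16 NK cell markers. Of 16 dendritic cell markers 12 fell and 3 rose, among the latter *Batf3*, a factor that activated T cells also express. Markers of CD8 T cells held 0.0287% to 0.0306% of TPM in medium and 0.0251% to 0.0315% after stimulation, with overlapping groups. In bulk RNA, fewer cells of a type and less RNA per cell cannot be told apart. With the B cell, plasma cell, macrophage, neutrophil and monocyte, dendritic, erythroid, platelet and stromal markers and the immunoglobulin genes left out and the rest rescaled, a setting chosen after seeing the data, 1788 genes rose and 2892 fell.

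**Figure D3:**
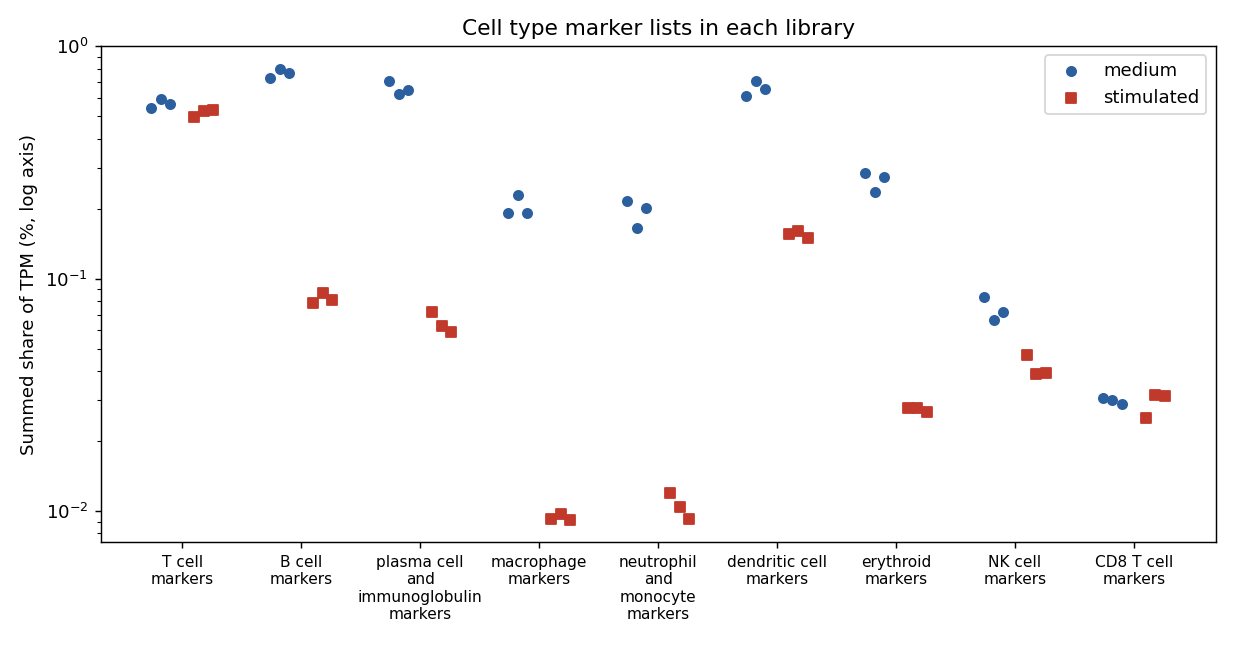
Summed share of all TPM (%, log axis) held by 9 lists of cell type markers in each library, circles for medium and squares for stimulated cells. The T cell list lies slightly lower after stimulation, the CD8 T cell list overlaps, and the B cell, plasma cell, macrophage, neutrophil and monocyte, dendritic, erythroid and NK cell lists lie lower in all 3 stimulated libraries.

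Most genes of the T cell receptor complex were not called. Of 12 genes of the complex and its partners 1 rose (8.33%, against 12.7% of all tested genes) and 1 fell (8.33%, against 19.8%). Variable segments of the receptor held 0.364% to 0.385% of TPM in medium and 0.212% to 0.218% after stimulation, lower in every stimulated library. *Cd3e*, a CD3 chain, read 338, 477 and 383 TPM in medium and 352, 379 and 377 TPM after stimulation, and the groups overlapped (log2 fold change -0.10 ± 0.14, limma adjusted p = 0.546). *Cd28*, the costimulatory receptor, read 117, 129 and 114 TPM in medium and 139.8, 166 and 159.9 TPM after stimulation, a difference of 0.37 on the log2 scale that stayed under the fold threshold. *Cd4*, the coreceptor for MHC class II, read 361, 435 and 355 TPM in medium and 169.6, 246 and 246 TPM after stimulation, lower in every stimulated library and also under the threshold (-0.81 ± 0.16, limma adjusted p = 0.00114). *Cd4* passed it after quantile scaling. *Cd2*, an adhesion receptor, rose 2.14-fold, and *Cd3g*, another CD3 chain, fell 2.06-fold from 655, 545 and 646 to 308, 297 and 290.4 TPM. Both of these lay close to the threshold, and neither count held in every setting (0 rose and 2 fell after quantile scaling).

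Among 17 proximal signaling kinases and adaptors 1 rose and 4 fell, and the share that fell (23.5%) was near that of all tested genes (19.8%). *Malt1*, the paracaspase that carries the signal to NF-κB, rose from 115, 117 and 108 TPM to 160.4, 270 and 276 TPM, with the smallest stimulated value in replicate 1 and a change just past the threshold (1.01) that was lost in some alternatives. *Rasgrp1*, which activates Ras, *Grap2*, an adaptor that binds SLP-76, and *Txk*, a Tec family kinase, fell (log2 fold changes -1.51, -1.88 and -1.48). *Lck*, the kinase that phosphorylates CD3, read 488, 572 and 521 TPM in medium and 359, 394 and 392.2 TPM after stimulation, lower in all 3 stimulated libraries but not called (-0.46, limma adjusted p = 0.0032). Of 23 genes of the NFAT and calcium pathway none rose and 6 fell (26.1%, also near the share of all genes), although the count without stimulated replicate 1 and medium replicate 2 was 1 higher and 4 lower. *Orai2*, a calcium channel subunit, was 6.65-fold lower, and *Ppp3ca*, the catalytic subunit of calcineurin, fell by 2.25 on the log2 scale.

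The immediate early factors rose in part by 24 h. Of 17 tested, 8 rose (47.1%, against 12.7% of all tested genes) and 3 fell (17.6%, near the 19.8% of all). *Atf3*, a stress and activation factor, rose from 2.04, 2.002 and 2.17 TPM to 78.4, 80.4 and 78.4 TPM, 38.2-fold (log2 fold change 4.71 ± 0.12, limma adjusted p = 6.89e-10). *Nr4a3*, an orphan nuclear receptor induced by T cell receptor signaling, rose 20.5-fold, whereas its relative *Nr4a1* read 165, 199 and 167 TPM in medium and 201, 239 and 205 TPM after stimulation, all 3 stimulated values above all 3 medium values but by only 0.28 on the log2 scale. *Egr2*, a zinc finger factor of the same early response, rose from 14.5, 20.1 and 18.7 to 77.3, 91.8 and 87.6 TPM. *Myc*, the driver of growth and metabolic genes, rose from 124, 149 and 152 TPM to 596, 715 and 650.3 TPM, or 4.62-fold (2.20 ± 0.12, limma adjusted p = 9.14e-08). The Fos family showed both directions. *Fosl2* and *Fosl1* rose by 3.52 and 3.39 on the log2 scale. *Fos* itself read 319, 354 and 293 TPM in medium and 8.19, 7.51 and 5.22 TPM after stimulation, a fall of 46.2-fold (-5.36 ± 0.15, limma adjusted p = 9.26e-10), and the 2 groups lay far apart. *Fosb*, its close relative, was 150.2-fold lower, the largest fall of the list.

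Lineage and effector transcription factors rose more often than genes as a whole. Of 27 tested, 14 rose (51.9%, against 12.7% of all tested genes) and 4 fell (14.8%, against 19.8%), with a list median of 1.02. With the markers of other cells removed 11 of 25 rose (median 0.89). Leaving out 1 library at a time gave 13 to 15 rises. *Nfil3*, a basic leucine zipper factor, had the largest rise, from 2.55, 4.33 and 3.93 TPM to 147, 175 and 174 TPM (45.9-fold). *Irf4*, whose level follows the strength of receptor signaling, read 55.7, 61.5 and 54.6 TPM in medium and 578, 794 and 829.6 TPM after stimulation, 12.8-fold more (3.64 ± 0.14, limma adjusted p = 6.95e-09). *Tbx21*, which encodes T-bet, the Th1 regulator, rose from 12.2, 15.3 and 12.6 TPM to 122, 142 and 144 TPM (3.26 ± 0.11, limma adjusted p = 3.86e-09). *Gata3*, the Th2 regulator, rose 3.09-fold from 28.1, 38.7 and 30.2 to 83.6, 107 and 109 TPM. *Hif1a*, the oxygen-sensing regulator that also drives glycolytic genes, rose 10.4-fold, to 700.2, 929 and 945 TPM. *Batf* and *Batf3*, AP-1 partners of IRF4, rose by 1.73 and 2.60 on the log2 scale. *Foxp3*, the regulatory T cell factor, read 23.9, 34.6 and 28.7 TPM in medium and 18.7, 29.3 and 28.5 TPM after stimulation, with overlapping groups. *Tox*, a factor of T cell development and exhaustion, had the largest fall, from 27.3, 35.3 and 28.5 to 4.07, 5.44 and 5.45 TPM, and *Bcl6*, the follicular helper factor, fell 4.94-fold.

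Cytokine transcripts showed some of the largest rises. Of 20 T helper cytokines tested 18 rose and none fell. For 10 of the 20, the filter on low values was passed only through 1 of the groups, so that their difference was built into the selection and no more is read from the count. The list median of 3.28 is set largely by the pseudocount, being 5.10 at a pseudocount of 0.1 and 1.79 at 5. *Il2*, the T cell growth factor, was low in medium at 0.265, 0.116 and 0.452 TPM and read 23.3, 13.3 and 9.27 TPM after stimulation (log2 fold change 3.59 ± 0.27, limma adjusted p = 9.38e-07). Replicate 1 was the highest of the stimulated libraries. *Il2* passed the filter through the stimulated group alone, as did *Il13* and *Il24*. Their difference was thus built into the selection, and nothing is read from the p-value of *Il2*. *Ifng*, the Th1 cytokine, rose from 10.2, 7.72 and 9.66 to 249, 210.4 and 188 TPM, 23.5-fold (4.41 ± 0.17, limma adjusted p = 7.93e-09). *Il4*, the Th2 cytokine, was listed at 0 in medium replicate 2 and at 1.78 and 0.439 TPM in replicates 1 and 3, against 34.1, 28.1 and 22.8 TPM in stimulated cells. *Il13* and *Il24* were listed at 0 in all 3 medium libraries and reached 48.4, 54.8 and 47.8 TPM and 27.4, 21.2 and 21.5 TPM, respectively. *Il21*, a helper cytokine for B cells, lay at 345, 346 and 346 TPM after stimulation, a spread of 0.555 TPM (SD, n = 3). *Il17a*, the Th17 cytokine, rose from 1.63, 0.838 and 0.629 to 17.3, 11.3 and 10.8 TPM, and *Il10*, an anti-inflammatory cytokine, from 3.08, 1.99 and 2.48 to 20.1, 19.3 and 18.9 TPM. *Tnf* read 16.4, 23.3 and 20.97 TPM in medium and 44.3, 40.8 and 31.4 TPM after stimulation, above medium in every library but below the fold threshold (0.91), and *Tgfb1* overlapped between groups.

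The promoters of the cytokine genes were searched for the AP-1 site TGANTCA, the motif bound by Fos and Jun family dimers, on both strands of the 250 bases before the RefSeq start site. Genes with several annotated starts have several windows and some have none. The motif lay in 4 of 18 windows of this list (22.2%), against 4.42% of the windows of all tested genes and 6.75% of all mouse windows in the table. The 4 were *Il17a*, *Il6*, *Il9* and *Lif*. All genes called higher held the motif in 5.86% of their windows and all called lower in 5.87%. *Lif*, a cytokine of the interleukin 6 family, rose from 0.402, 1.002 and 0.856 TPM to 99.2, 124 and 119.6 TPM, and its window (chr11:4257318-4257567, plus strand, GRCm38.p6) is shown because it belongs to the cytokine with the largest rise among those that hold the motif. Capitals mark the match, which reads as the motif on either strand and starts 228 bases before the start site. A match of letters is a description and was not tested for binding.
Lif: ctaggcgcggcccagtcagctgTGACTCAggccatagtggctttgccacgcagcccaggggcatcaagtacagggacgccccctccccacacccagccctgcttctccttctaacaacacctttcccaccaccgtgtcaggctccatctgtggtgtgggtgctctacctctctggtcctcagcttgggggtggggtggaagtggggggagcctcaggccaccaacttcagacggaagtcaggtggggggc

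Chemokines and granule genes rose in part. Of 12 chemokines listed 9 were tested, of which 7 rose and 1 fell. *Ccl22*, a ligand of CCR4, had the largest rise, with 106, 106 and 106 TPM in stimulated cells against 1.16, 1.35 and 1.06 TPM. *Ccl3* and *Ccl4*, inflammatory chemokines, rose 9.59-fold and 29.9-fold. *Ccl5*, a chemokine of memory and effector cells, fell from 120.1, 125 and 117 TPM to 25.8, 29.7 and 24.7 TPM, 4.52-fold (log2 fold change -2.14 ± 0.10, limma adjusted p = 2.41e-08). Of 13 granule genes 11 were tested, of which 5 rose (45.5%, against 12.7% of all tested genes) and 1 fell (9.09%, against 19.8%). *Gzmb*, the serine protease of cytotoxic granules, read 25.7, 21.2 and 21.6 TPM in medium and 1738, 1834 and 1727 TPM after stimulation, a rise of 77.4-fold (6.22 ± 0.10, limma adjusted p = 1.00e-10). *Serpinb9*, the inhibitor that protects a cell from granzyme B, rose by 2.42 on the log2 scale. *Prf1*, the pore-forming perforin, differed by 0.44 and was not called, and *Gzmk*, another granzyme, fell by 1.53.

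Surface receptors of activation rose together with a few that fell. Among 24 activation receptors 15 rose (62.5%, against 12.7% of all tested genes) and 2 fell (8.33%, against 19.8%), with a list median of 1.83. *Il2ra*, the high-affinity chain of the interleukin 2 receptor (chr2:11642807-11693193, plus strand, GRCm38), read 22.9, 26.3 and 22.9 TPM in medium and 723, 944 and 938 TPM after stimulation, 36.1-fold more (5.11 ± 0.13, limma adjusted p = 5.45e-10). Replicate 1 was the lowest of the stimulated libraries and still far above medium. *Tnfrsf4*, the costimulatory receptor OX40, rose from 49.4, 48.1 and 53.1 TPM to 1025, 1076 and 1119 TPM. *Tnfrsf8*, which encodes CD30, *Tnfrsf9*, which encodes 4-1BB, and *Tnfrsf18*, which encodes GITR, rose 51.8-fold, 14.1-fold and 9.51-fold. *Il12rb2*, the inducible chain of the interleukin 12 receptor, rose 37.7-fold. *Icos* and *Tfrc*, a costimulatory receptor and the transferrin receptor, rose 3.42-fold and 4.54-fold. *Cd69*, an early activation marker, read 517, 413 and 414 TPM in medium and 394, 374 and 372 TPM after stimulation, slightly lower in each stimulated library and not called (-0.23 ± 0.14, limma adjusted p = 0.159). *Il18r1*, a chain of the interleukin 18 receptor, fell from 54.04, 46.9 and 46.5 TPM to 6.19, 8.47 and 7.45 TPM, and *Cd40lg*, the ligand that helps B cells, fell 3.28-fold from 102, 115 and 94.97 to 29.7, 34.1 and 31.2 TPM.

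Of 12 coinhibitory genes 4 rose (33.3%, against 12.7% of all tested genes) and 5 fell (41.7%, against 19.8%). *Lag3*, an inhibitory receptor that binds MHC class II, rose from 11.8, 16.3 and 12.3 to 354, 373 and 381 TPM, 27.4-fold (log2 fold change 4.69 ± 0.12, limma adjusted p = 8.01e-10). *Tigit*, *Ctla4* and *Cd274*, the last encoding PD-L1, rose 5.78-fold, 3.74-fold and 3.73-fold. *Pdcd1*, which encodes PD-1, read 12.5, 11.1 and 13.1 TPM in medium and 14.9, 18.8 and 15.5 TPM after stimulation, above medium in each library by a difference under the threshold (0.39). *Cd96*, a receptor related to TIGIT, fell from 104, 89.99 and 95.8 to 10.2, 12.4 and 10.3 TPM, and *Entpd1* and *Nt5e*, the enzymes that turn extracellular ATP into adenosine, fell as well (log2 fold changes -2.04 and -2.20). Of 32 feedback regulators 31 were tested, of which 9 rose (29%, against 12.7% of all tested genes) and 6 fell (19.4%, near the 19.8% of all). *Cish* and *Socs1*, inhibitors of cytokine signaling, rose 20.1-fold and 21.1-fold. *Dusp5* and *Dusp4*, phosphatases of ERK, rose 8.39-fold and 6.74-fold, whereas their relatives *Dusp1* and *Dusp6* fell. *Dusp1* read 188, 191 and 161 TPM in medium and 18.1, 17.5 and 18.5 TPM after stimulation. *Dgka*, which removes diacylglycerol, fell 3.79-fold from 885, 904 and 866 TPM to 197, 258 and 247 TPM.

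**Figure D4:**
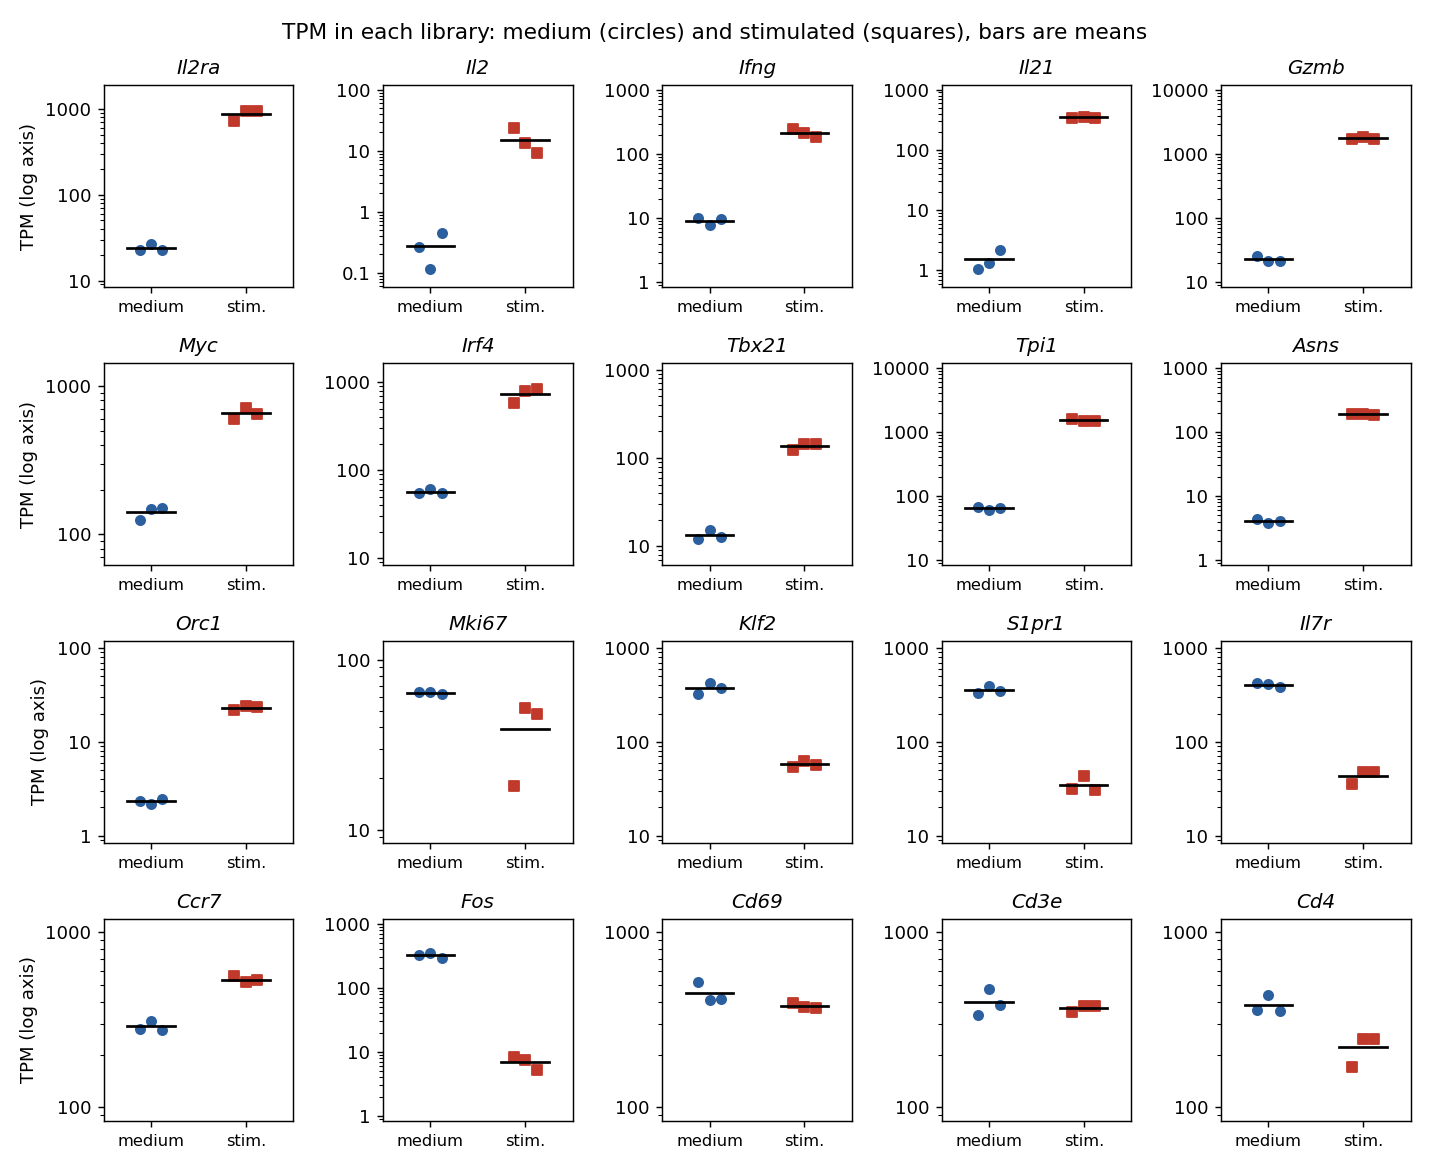
TPM in each library (log axis) for 20 genes, circles for medium, squares for stimulated cells and bars for group means. *Il2ra*, *Il2*, *Ifng*, *Il21*, *Gzmb*, *Myc*, *Irf4*, *Tbx21*, *Tpi1*, *Asns* and *Orc1* lie higher in all 3 stimulated libraries, *Klf2*, *S1pr1*, *Il7r* and *Fos* lie lower in all 3, and the groups overlap for *Cd3e*.

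Of 40 genes of the resting and naive state 23 fell (57.5%, against 19.8% of all tested genes) and 1 rose, with a list median of -1.17. Their summed share of TPM went from 1.12% ± 0.068 (SD, n = 3) to 0.593% ± 0.060. Without stimulated replicate 1 and medium replicate 2, 19 fell. *Tsc22d3*, which encodes the glucocorticoid-induced GILZ, had the largest fall, from 587, 514 and 546 to 28.2, 27.5 and 27.2 TPM (log2 fold change -4.26 ± 0.08, limma adjusted p = 1.66e-10). *Klf2*, which keeps T cells quiescent and drives their homing receptors, read 325, 423 and 377 TPM in medium and 54.6, 61.96 and 56.95 TPM after stimulation, 6.49-fold lower (-2.67 ± 0.11, limma adjusted p = 1.28e-08). *Il7r*, the survival receptor of naive cells, fell from 420, 409.7 and 387 TPM to 35.5, 47.4 and 47.4 TPM (-3.21 ± 0.13, limma adjusted p = 9.87e-09). *S1pr1*, the receptor by which T cells leave lymphoid organs, fell 10.2-fold, from 329.8, 399 and 346 TPM to 31.2, 43.3 and 30.8 TPM (-3.33 ± 0.14, limma adjusted p = 1.13e-08). *Tcf7*, *Lef1*, *Foxo1* and *Foxp1*, transcription factors of naive cells, fell too (log2 fold changes -1.10, -1.13, -1.22 and -1.07). *Ccr7*, the receptor for lymph node entry, was higher in each stimulated library at 561, 518 and 533 TPM against 279.5, 311 and 278 TPM (0.89) and was not called. The member that rose was *Satb1*, a chromatin organiser, from 241, 309.8 and 245 to 562, 805 and 813 TPM. The summed shares of the B cell, plasma cell, macrophage, neutrophil and monocyte, dendritic, erythroid and NK cell markers fell in the same libraries, and their part in the result was not tested.

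Of 22 homing receptors and integrins 3 rose and 11 fell (50%, against 19.8% of all tested genes), in the libraries in which the macrophage, B cell and NK cell markers fell. *Ccr8* and *Ccr4*, chemokine receptors of effector and tissue-homing cells, rose 20.6-fold and 7.66-fold. *Cxcr4*, the receptor for CXCL12, read 498, 517 and 468 TPM in medium and 23.5, 26.3 and 24.7 TPM after stimulation, 19.9-fold lower. *Cd55*, a complement regulator counted in the same list, fell 24.4-fold to 7.21, 9.36 and 7.94 TPM, and *Itga4*, the integrin alpha 4 chain, fell by 3.95 on the log2 scale. Of 21 brakes on phosphoinositide and mTOR signaling 20 were tested, of which 9 fell (45%) and none rose, and 6 fell without stimulated replicate 1 and medium replicate 2. *Pik3ip1*, an inhibitor of PI3 kinase, fell from 147, 144 and 146 TPM to 13.7, 16.4 and 13.2 TPM. *Mtor* itself overlapped between groups. Of 20 genes of mRNA decay and antiproliferation 1 rose and 7 fell (35%), or 5 without stimulated replicate 1. *Zfp36* and *Zfp36l2*, proteins that destabilise cytokine mRNAs, fell (log2 fold changes -2.11 and -1.89), as did *Tob1*, an antiproliferative factor (-2.76). Of 26 autophagy and lysosome genes 7 fell (26.9%, against 19.8% of all tested genes) and 1 rose.

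Genes of ribosome biogenesis rose broadly. Of 40 ribosome biogenesis genes 27 rose and none fell, all 40 were higher at an adjusted p below 0.05 with no fold limit, and the list median was 1.48. *Gar1*, a component of box H/ACA ribonucleoproteins, rose from 31.3, 37.7 and 31.7 TPM to 201, 203 and 207 TPM, 6.06-fold (log2 fold change 2.57 ± 0.10, limma adjusted p = 1.02e-08). *Ncl*, nucleolin, rose 5.12-fold from 213, 232 and 211 to 1075, 1159.7 and 1125 TPM, and *Npm1*, nucleophosmin, from 1082, 814 and 997 to 3651, 3141 and 3134 TPM. Of 33 translation initiation factors 15 rose and 1 fell. The paralogs of the eIF4A helicase moved apart: *Eif4a1* rose 2.37-fold while *Eif4a2* fell from 1798, 1387 and 1573 TPM to 548, 508 and 500.4 TPM. *Eif4ebp1*, the repressor of cap-dependent translation, rose from 6.46, 6.88 and 8.60 TPM to 157, 126 and 132 TPM. Of 36 aminoacyl-tRNA synthetases 15 rose and none fell, led by *Gars*, the glycyl enzyme, at 6.56-fold. Of 77 mitochondrial ribosomal proteins 27 rose and 28 of the 46 proteasome subunits tested (48 listed) rose, with none falling in either list. Without stimulated replicate 1 and medium replicate 2 22 genes rose in each of these lists. The cytosolic ribosomal proteins themselves held 11.32%, 8.33% and 11.12% of TPM in medium and 15.26%, 11.31% and 11.57% after stimulation. The groups overlapped, and the exact two-sided permutation test gave 0.2. The lowest medium and the highest stimulated share came from the libraries that stood apart by transcript length. Of the 80 tested (83 listed) 8 were called higher, 10% against 12.7% of all tested genes, and 3 without those libraries. *Rpl7a* was 1 of the 8, but its values of 479.6, 156 and 309.7 TPM and 1639, 419 and 1101 TPM overlapped, and ribosomal protein genes share sequence with processed pseudogenes, so its level is uncertain.

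Genes of glucose use rose strongly. Of 23 genes of glucose uptake and glycolysis 17 rose and none fell, with a list median of 2.31. Together they held 0.248%, 0.269% and 0.255% of TPM in the medium libraries and 1.59%, 1.71% and 1.64% in the stimulated libraries, which is 0.258% ± 0.011 against 1.65% ± 0.059 (SD, n = 3). The exact two-sided permutation test gave 0.1, the smallest p that 3 against 3 libraries allow. *Tpi1*, triose phosphate isomerase, rose from 67.5, 61.6 and 65.7 TPM to 1591, 1462 and 1504 TPM, 23.4-fold (log2 fold change 4.53 ± 0.08, limma adjusted p = 1.66e-10). *Hk2*, the inducible hexokinase, rose 21.7-fold from 5.27, 6.05 and 5.47 to 84.4, 139 and 139.8 TPM, with replicate 1 the lowest of the stimulated libraries. *Pgk1*, phosphoglycerate kinase, rose 14.96-fold. *Pkm*, pyruvate kinase, rose from 416, 484 and 424 TPM to 3198, 3822 and 3799 TPM, the gain in mean TPM being among the 5 largest of the called genes. *Ldha*, the enzyme that makes lactate, rose 6.09-fold, and *Slc2a1*, the glucose transporter GLUT1, 5.32-fold. *Gapdh* met the call with 50.1, 51.5 and 47.5 TPM and 96.99, 546 and 98.0 TPM, but stimulated replicate 2 stood far from the others and the gene has many pseudogene copies, so its level is uncertain. *Slc2a3*, the transporter GLUT3, differed by 0.45 and was not called. Of 19 TCA cycle genes 2 rose (10.5%) and of 7 genes of the cytosolic pentose phosphate pathway 1 rose (14.3%), both near the 12.7% of all tested genes. The latter was *Tkt*, transketolase, at 2.58-fold.

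The glycolytic promoters were searched in the same way for GACGTG, a core that the hypoxia-inducible factors bind. It lay in 9 of 35 windows of the list (25.7%), against 7.39% of the windows of tested genes and 5.2% of all windows. All genes called higher held it in 8.31% of their windows and all called lower in 5.19%. *Slc16a3*, the lactate exporter MCT4, rose from 3.96, 4.43 and 3.96 TPM to 105, 126 and 119 TPM and has the largest rise among the members that hold the letters. Its window (chr11:120948817-120949066, plus strand, GRCm38.p6) holds 2 matches in capitals, starting 28 and 15 bases before the start site.
Slc16a3: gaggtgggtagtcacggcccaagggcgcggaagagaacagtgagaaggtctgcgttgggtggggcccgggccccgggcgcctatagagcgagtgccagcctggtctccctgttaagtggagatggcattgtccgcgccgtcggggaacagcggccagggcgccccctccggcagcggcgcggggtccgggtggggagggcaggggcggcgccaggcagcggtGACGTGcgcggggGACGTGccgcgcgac

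Genes of amino acid supply rose. Of 22 ATF4 target and amino acid synthesis genes 21 were tested, of which 20 rose and none fell, with a list median of 3.17. Of the 21, 5 passed the filter through the stimulated or the medium group alone, so their difference was built into the selection. *Asns*, asparagine synthetase, rose from 4.43, 3.74 and 4.14 TPM to 192, 188 and 186 TPM, 46.1-fold (log2 fold change 5.22 ± 0.10, limma adjusted p = 1.66e-10). *Psat1* and *Phgdh*, enzymes of serine synthesis, rose 16.5-fold and 8.98-fold. *Phgdh* read 54.5, 49.1 and 54.5 TPM in medium and 508, 462 and 449.7 TPM after stimulation. *Mthfd2* and *Shmt2*, enzymes of mitochondrial one-carbon metabolism, rose 9.71-fold and 9.02-fold. *Aldh1l2*, a mitochondrial folate enzyme, was listed at 0 in all 3 medium libraries and at 7.83, 15.01 and 13.1 TPM after stimulation. *Atf4*, the transcription factor of this response, read 362, 383 and 367 TPM in medium and 694, 656 and 646 TPM after stimulation, higher in each stimulated library by 0.84 and below the fold threshold. Of 11 amino acid transporters 8 rose and none fell, and 3 of the 11 had passed the filter through 1 group alone, with their difference likewise built in. *Slc7a5*, the leucine transporter LAT1, rose from 16.7, 23.95 and 18.3 TPM to 349.5, 447 and 437 TPM, and its partner chain *Slc3a2* rose 5.06-fold. *Slc7a3*, a cationic amino acid transporter, rose 159-fold from a low level. *Slc38a2*, the glutamine transporter SNAT2, overlapped between groups.

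The amino acid response element, the site bound by ATF4 with C/EBP partners, was searched as the core TGATGNAA. It lay in 5 of 22 windows (22.7%), those of *Asns*, *Chac1*, *Nupr1*, *Pycr1* and *Vldlr*, against 2.07% of the windows of tested genes and 3.45% of all windows. All genes called higher held it in 2.59% of their windows and all called lower in 2.35%. The list was written to include ATF4 targets, so its share was in part built in. The window of *Asns* (chr6:7693210-7693459, minus strand, GRCm38.p6, printed in the direction of transcription) is shown because this gene has the largest rise among the members that hold the core. Its match, in capitals, starts 23 bases before the start site.
Asns: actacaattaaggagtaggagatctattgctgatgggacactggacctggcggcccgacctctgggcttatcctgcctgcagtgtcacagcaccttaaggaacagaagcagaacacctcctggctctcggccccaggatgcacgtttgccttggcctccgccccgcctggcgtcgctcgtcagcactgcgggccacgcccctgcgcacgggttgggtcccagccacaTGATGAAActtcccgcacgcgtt

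Of 27 genes of cholesterol synthesis and uptake 26 were tested, of which 15 rose and 2 fell. *Fdps*, farnesyl diphosphate synthase, had the largest rise, from 36.1, 35.6 and 38.4 TPM to 208, 166 and 199 TPM. *Sqle*, squalene epoxidase, rose 4.55-fold from 11.04, 14.6 and 12.4 to 53.95, 57.8 and 61.1 TPM, and *Hmgcs1*, which makes HMG-CoA, rose 2.85-fold. The members that fell were the exporters *Abca1* and *Abcg1*. *Abca1* read 21.9, 24.6 and 21.3 TPM in medium and 0.732, 1.33 and 1.25 TPM after stimulation, 20.5-fold lower (log2 fold change -3.50 ± 0.14, limma adjusted p = 7.87e-09), and macrophage markers, which fell in the same libraries, mark another cell that expresses it, so that the part of those cells in this value was not tested. *Srebf2*, the transcription factor of the pathway, overlapped between groups. Of 13 fatty acid genes 5 rose (38.5%, against 12.7% of all tested genes) and 3 fell (23.1%, near the 19.8% of all). *Fabp5*, a fatty acid binding protein, rose from 10.3, 10.4 and 7.76 to 148, 127 and 134 TPM. The desaturase paralogs moved apart, with *Scd2* up 2.16-fold and *Scd1* down 9.36-fold, and *Cpt1a*, which admits fatty acids to mitochondria for oxidation, fell 5.55-fold from 44.9, 58.0 and 48.5 TPM to 6.08, 10.4 and 10.7 TPM.

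CCAAT, the box bound by NF-Y, which often sits beside sterol regulatory elements, was searched in the cholesterol promoters. It lay in 18 of 23 windows (78.3%), against 35.8% of the windows of tested genes and 33.8% of all windows. All genes called higher held it in 35.7% of their windows and all called lower in 35%. *Idi1*, isopentenyl diphosphate isomerase, rose from 24.5, 22.3 and 21.6 TPM to 117, 109 and 109 TPM and has the largest rise among the members that hold the box. Its window (chr13:8885356-8885605, plus strand, GRCm38.p6) holds 2 matches on the reverse strand, written in capitals as ATTGG and starting 45 and 14 bases before the start site.
Idi1: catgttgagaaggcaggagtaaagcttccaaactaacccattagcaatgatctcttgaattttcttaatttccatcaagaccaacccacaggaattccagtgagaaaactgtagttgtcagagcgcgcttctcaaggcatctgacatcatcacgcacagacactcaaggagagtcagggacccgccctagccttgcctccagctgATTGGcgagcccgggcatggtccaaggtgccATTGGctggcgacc

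Genes of DNA replication rose, and few genes of mitosis passed the test. Of 45 replication and deoxynucleotide supply genes 31 rose and none fell, with a list median of 1.32. *Orc1*, the largest subunit of the origin recognition complex, rose from 2.35, 2.16 and 2.45 TPM to 21.8, 24.1 and 23.5 TPM, 9.97-fold (log2 fold change 2.86 ± 0.11, limma adjusted p = 5.78e-09). *Mcm3*, *Mcm5* and *Mcm6*, subunits of the replicative helicase, rose 5.19-fold, 4.10-fold and 4.28-fold. *Pcna*, the sliding clamp, read 311, 216 and 268 TPM in medium and 562, 437 and 449.9 TPM after stimulation, higher in each stimulated library and under the threshold (0.87). Of 36 mitosis and spindle genes none rose (against 12.7% of all tested genes) and 3 fell (8.33%, against 19.8%), and the list median was 0.13. With no fold limit 10 were higher and 7 lower at an adjusted p below 0.05. The summed share of the 36 genes was 0.0608% of TPM in medium and 0.0644% after stimulation, with an exact two-sided permutation p of 0.4. *Mki67*, the proliferation marker Ki-67, read 64.2, 64.7 and 62.7 TPM in medium and 18.2, 51.8 and 48.03 TPM after stimulation, with replicate 1 far below the other stimulated libraries, and it was not called (-0.82 ± 0.31, limma adjusted p = 0.0369). It was called lower without stimulated replicate 2 or without stimulated replicate 3. *Top2a*, topoisomerase II alpha, read 65.6, 47.1 and 54.3 TPM in medium and 95.4, 121 and 112 TPM after stimulation, and *Cenpa*, the centromeric histone, fell from 40.9, 41.4 and 41.9 to 17.6, 15.4 and 16.1 TPM. Among the mitotic genes 1 was called higher without stimulated replicate 1 and 3 after quantile scaling.

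Of 27 regulators of the G1 phase 10 rose (37%, against 12.7% of all tested genes) and 6 fell (22.2%, near the 19.8% of all), and 3 of the 27 had passed the filter through 1 group alone. *Ccnd2*, the D cyclin that T cells use, rose from 134, 154 and 136 to 357, 549.5 and 542 TPM, and *Cdk4*, *Cdk6* and *E2f1*, the kinases it activates and a transcription factor they release, rose 2.56-fold, 4.11-fold and 4.46-fold. *Cdkn1a*, the inhibitor p21, had the largest rise, from 1.58, 1.78 and 1.93 TPM to 61.2, 65.3 and 62.4 TPM. *Cdkn1b*, the inhibitor p27, and *Rb1* and *Rbl2*, the retinoblastoma protein and a relative, fell (log2 fold changes -1.51, -1.14 and -1.35). *Ccnd1*, another D cyclin, fell from 14.3, 14.5 and 12.5 TPM to 0.558, 0.744 and 0.515 TPM. Nucleotide synthesis rose with replication: 12 of 19 purine and pyrimidine genes rose and none fell, led by *Ctps*, CTP synthetase, at 77.8, 83.6 and 81.8 TPM against 21.9, 20.98 and 21.1 TPM. *Odc1*, the first enzyme of polyamine synthesis, rose 4.83-fold from 117, 109 and 109 to 541, 539.9 and 538 TPM.

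The E2F site core GCGGGAA was searched in the replication promoters. It lay in 11 of 44 windows (25%), against 6.71% of the windows of tested genes and 3.82% of all windows. All genes called higher held it in 8.79% of their windows and all called lower in 3.79%. *Uhrf1*, which guides DNA methylation at replication, rose from 22.03, 27.3 and 21.7 TPM to 109, 157 and 155 TPM and has the largest rise among the members that hold the core. Its window (chr17:56303087-56303336, plus strand, GRCm38.p6) holds 1 match on the reverse strand, in capitals, starting 48 bases before the start site.
Uhrf1: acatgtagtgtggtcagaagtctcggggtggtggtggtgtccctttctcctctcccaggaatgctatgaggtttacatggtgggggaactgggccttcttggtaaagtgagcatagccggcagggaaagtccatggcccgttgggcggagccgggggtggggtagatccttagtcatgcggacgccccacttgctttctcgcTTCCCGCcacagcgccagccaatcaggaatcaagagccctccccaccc

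Of 23 heat shock genes 22 were tested, of which 14 rose and 3 fell. *Hspd1*, the mitochondrial chaperonin counted in this list, rose from 169, 150.4 and 153 to 884, 942 and 919 TPM, and *Hsp90ab1*, the constitutive HSP90, rose 3.17-fold to 3791, 4974 and 4934 TPM. The inducible HSP70 genes went the other way. *Hspa1b* read 288, 389 and 329 TPM in medium and 1.73, 2.05 and 2.01 TPM after stimulation, 174-fold lower, and *Hspa1a* was 142-fold lower, but the 2 genes are nearly identical and their reads can be split between them. *Hsf1*, the transcription factor of the heat shock response, overlapped between groups. Of 24 endoplasmic reticulum chaperone and unfolded protein response genes 8 rose (33.3%, against 12.7% of all tested genes), 3 fell (12.5%, against 19.8%) and 13 were not called. With the other-cell markers removed 5 rose, and 6 after quantile scaling. *Xbp1*, the transcription factor of that response, rose from 77.8, 81.1 and 76.9 to 309, 301 and 294 TPM, whereas *Dnajb9* and *Derl3*, an ER cochaperone and a component of ER-associated degradation, fell 4.94-fold and 5.39-fold, and *Hspa5*, the main ER chaperone BiP, overlapped between groups.

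Of 15 interferon-inducible GTPases 7 rose and none fell, and of 30 other interferon-stimulated genes 4 rose (13.3%, near the 12.7% of all tested genes, and 2 after quantile scaling) and 10 fell (33.3%, against 19.8%). Among the GTPases 1 was called lower after quantile scaling and with the other-cell markers removed. *Gbp2*, a guanylate-binding protein, rose from 64.03, 56.96 and 59.9 TPM to 1231, 1188 and 1219 TPM, 20.1-fold (log2 fold change 4.31 ± 0.08, limma adjusted p = 1.66e-10). *Gbp5*, *Iigp1*, *Igtp* and *Irgm1*, GTPases that act against intracellular pathogens, rose 10.7-fold, 6.82-fold, 5.50-fold and 3.76-fold. *Gbp7* overlapped between groups. *Isg15*, a ubiquitin-like modifier, rose from 29.2, 27.4 and 32.2 to 105, 88.8 and 82.1 TPM. *Mx1*, an antiviral GTPase in the other list, and *Ifit2*, an antiviral RNA-binding protein, fell (log2 fold changes -1.72 and -1.58). *Cmpk2*, a mitochondrial nucleotide kinase, fell from 20.2, 20.1 and 20.1 to 2.66, 2.86 and 3.52 TPM.

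The interferon-stimulated response element core was searched as GAAANNGAA. It lay in 9 of 10 windows of the GTPase list (90%), against 6.6% of the windows of tested genes and 7.13% of all windows, and several of these genes are close relatives. All genes called higher held it in 7.02% of their windows and all called lower in 8.26%. The window of *Gbp2* (chr3:142620413-142620662, plus strand, GRCm38.p6) is shown because this gene has the largest rise of those that hold the core. Its match, in capitals, is on the reverse strand and starts 58 bases before the start site.
Gbp2: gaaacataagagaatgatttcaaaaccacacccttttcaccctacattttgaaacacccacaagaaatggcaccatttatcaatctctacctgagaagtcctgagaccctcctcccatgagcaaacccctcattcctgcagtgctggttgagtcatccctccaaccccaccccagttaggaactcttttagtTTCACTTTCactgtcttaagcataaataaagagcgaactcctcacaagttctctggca

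Genes of the BCL2 family rose in part and few death receptor genes were called. Of 18 BCL2 family genes 15 were tested, of which 5 rose (33.3%, against 12.7% of all tested genes) and 1 fell (6.67%, against 19.8%). *Bcl2l1*, which encodes the survival protein BCL-xL, rose from 15.9, 20.2 and 16.5 TPM to 85.2, 99.4 and 103 TPM, 5.47-fold (log2 fold change 2.39 ± 0.12, limma adjusted p = 6.27e-08). *Bcl2*, the founding survival protein, rose from 53.5, 64.9 and 53.3 to 89.9, 141 and 134 TPM. *Bmf*, a BH3-only killer, fell from 13.8, 16.5 and 13.95 TPM to 1.62, 1.87 and 1.83 TPM, while *Bcl2l11*, which encodes BIM, and *Mcl1*, another survival protein, were not called. Of 18 genes of TRAIL and death receptor signaling 17 were tested, of which none rose (against 12.7% of all tested genes) and 1 fell (5.88%, against 19.8%). The list median was -0.01, a sign that changed with the scaling. Without stimulated replicate 1, without both libraries that stood apart by length and after either rescaling of the distributions (quantile and median of ratios), 1 member of the list was called higher. *Tnfrsf10b*, the mouse TRAIL receptor, read 3.87, 4.66 and 2.92 TPM in medium and 7.001, 9.40 and 8.55 TPM after stimulation, higher in all 3 stimulated libraries and just under the fold threshold (0.96 ± 0.16, limma adjusted p = 3.52e-04). *Tnfsf10*, TRAIL itself, fell from 15.7, 15.5 and 15.2 to 5.30, 6.39 and 5.82 TPM (-1.27 ± 0.12, limma adjusted p = 6.21e-06), a call that was lost at -0.98 after quantile scaling. *Fas* and *Casp8*, a death receptor and the initiator caspase, were not called. Of 18 p53 target genes 16 were tested, of which 5 rose (31.2%, against 12.7% of all tested genes) and 2 fell (12.5%, against 19.8%). Of the 16, 2 had passed the filter through 1 group alone, and *Trp53* overlapped between groups.

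Oxidative phosphorylation genes are encoded by the nuclear and the mitochondrial genome. Of 82 nuclear-encoded subunits of complexes I to V 77 were tested, of which 29 rose and none fell, or 20 rose without stimulated replicate 1 and medium replicate 2. *Atp5g1*, a subunit of the ATP synthase ring, rose from 2.41, 5.39 and 4.01 TPM to 117, 73.3 and 83.7 TPM. Of 13 protein genes of the mitochondrial genome 4 fell (30.8%, against 19.8% of all tested genes) and none rose (against 12.7%). Together the 13 genes held 9.54% of TPM in medium and 5.28% after stimulation. *mt-Co1*, a subunit of cytochrome c oxidase, was among the most abundant transcripts of both groups and read 27369, 28928 and 26814 TPM in medium and 11013, 10952 and 11067 TPM after stimulation, 2.52-fold lower (log2 fold change -1.33 ± 0.12, limma adjusted p = 3.68e-06). *mt-Nd1*, a subunit of complex I, overlapped between groups. The fall was sensitive to scaling, since 1 of the 13 was called after quantile scaling and 2 without the pair of libraries that stood apart by length.

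**Figure D5:**
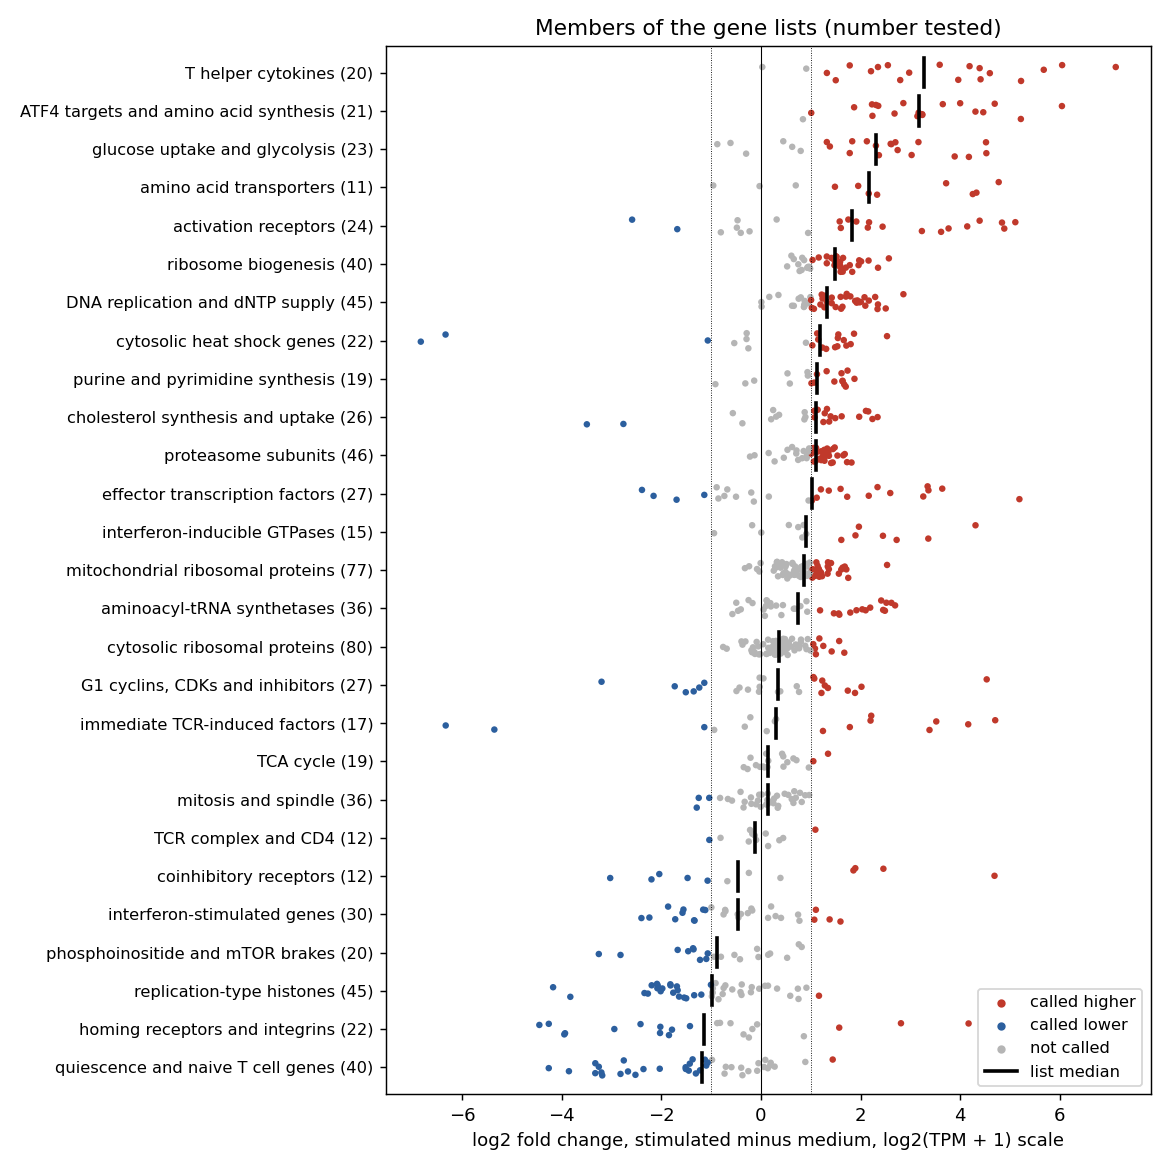
Log2 fold change of stimulated against medium cells (x axis) for each tested member of 27 gene lists (y axis, number tested in brackets), red for genes called higher, blue for genes called lower and grey for genes not called. Black ticks mark list medians and dotted lines mark the fold threshold of 1. The medians run from 3.28 for T helper cytokines, a value between 1.79 and 5.10 at other pseudocounts and with 10 of 20 members passing the filter through 1 group alone, down to -1.17 for quiescence genes.

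Of the called genes with at least 10 mean TPM in a group, several with the largest changes lay outside the lists. *Crabp2*, a retinoic acid binding protein, rose from 0.276, 0.185 and 0.250 TPM to 117, 101 and 104 TPM. *Egln3*, a prolyl hydroxylase that acts on HIF proteins, rose 102-fold to 198, 219 and 214 TPM. *Vegfa*, the vascular growth factor, rose from 1.03, 1.93 and 0.920 TPM to 82.2, 99.3 and 96.4 TPM, and *Ak4*, a mitochondrial adenylate kinase, from 0.283, 0.134 and 0.158 TPM to 35.8, 45.1 and 50.6 TPM. Among the largest falls, *Trf*, transferrin, went from 113, 156 and 114 TPM to 0.429, 0.433 and 0.423 TPM and *Hpgd*, the enzyme that inactivates prostaglandins, from 88.3, 87.4 and 85.6 TPM to 0.109, 0.0493 and 0.0750 TPM. The remaining falls of this size were those of markers of other cells, of *Fosb* and of the HSP70 pair. The part of other cells in the values of *Trf* and *Hpgd* was not tested. *Trf* and *Hpgd* passed the filter through the medium group alone, and *Crabp2* and *Ak4* through the stimulated group alone. The difference of these genes was thus built into the selection. Among the called genes, *Rps2*, a ribosomal protein, *Ptma*, prothymosin alpha, *Npm1*, *Hsp90ab1* and *Pkm* gained most in mean TPM, with *Ptma* going from 1317, 1543 and 1419 to 3989, 3675 and 3661 TPM. *Eef1a1*, a translation elongation factor, was the most abundant transcript of stimulated cells at 18524, 18729 and 18782 TPM against 13716, 12661 and 13146 TPM, a larger gain in mean TPM than any of these, and was not called (0.50).

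Some results depended on how the genes were chosen or on transcript length. The third-highest of the 6 values placed *Gm6157* at 1 and *Gm43625* at 1.001 TPM just inside the filter and *Mir207* at 0.9997 TPM just outside it, and 248 genes that rose and 832 that fell had passed it through 1 group alone.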

How the data were processed

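RNA was sequenced from 9 libraries of splenic CD4+ T cells, 3 per group. Per the study's methods and the submitters' processing notes, mRNA libraries (Agilent SureSelect XT HS2) were sequenced as 150 bp paired ends, trimmed with Trimmomatic 0.36, aligned with HISAT2 2.1.0, handled with SAMtools 1.2 and assembled with StringTie 2.1.2. DESeq2 is also named there. The deposited values are TPM per gene, computed by the authors, with zeros replaced by 0.0001, a value described here as listed at 0. The genome is GRCm38 per the study's methods; the labels name a human build, and 99.342% of 55141 matched genes lay at the locus GENCODE gives for GRCm38. TPM keeps no depth.

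Genes that reached 1 TPM in 3 or more of the 6 libraries were tested on log2(TPM + 1) with limma 3.58.1 (R 4.3.3; lmFit and eBayes with a mean trend), all 9 libraries in a fit of 3 groups, contrast stimulated minus medium, Benjamini-Hochberg adjustment over 15081 genes. Calls needed a log2 fold change of 1 or more in either direction with adjusted p under 0.05. Shares of TPM were compared by an exact two-sided permutation test over libraries. Promoter windows of 250 bases came from RefSeq (GRCm38.p6), with 9811 tested genes matched by symbol. The fit was tested on simulated data. Named genes were 22 fixed T cell genes, the members with the largest rise and fall of each list, other list members with their values known, the 12 largest rises and falls at 10 or more mean TPM with no library at 0 and no overlap, and the most abundant genes. Some genes that this rule names are not reported here. The members and lists were chosen with earlier results of these data known, and the histone list was extended after the files were seen. Alternatives changed the pseudocount, the filter, the scaling, the fit and the libraries. Python 3.11.15, pandas 2.3.3 and matplotlib 3.10.9 were used.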

Additional observations from a re-analysis of the deposited data

How the results depend on the processing

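No call changed direction in any alternative tried. With a pseudocount of 5 the calls were 1250 higher and 1696 lower, with no fold threshold 4441 and 6039, and with limma's test against a fold threshold (treat) 1023 and 1777. A filter at a mean of 5 TPM lowered the fall count to 1964, since fewer genes were tested. Quantile scaling raised the share of rises among calls to 50.1%; the cause was not tested. Among the listed genes, those called higher numbered 709 with no fold threshold, and those called lower numbered 901 with no fold threshold, 340 after rescaling to protein-coding genes and 296 with other-cell markers removed, which takes list members out. Leaving out 1 library at a time gave 1873 to 1952 rises and 2763 to 3221 falls, with the fewest falls without stimulated replicate 1 and the most without stimulated replicate 2. Correlations of deviations from group means were 0.225, 0.31 and -0.186 for same-numbered libraries and -0.393 to 0.256 for the other pairs. Deviations from a mean of 3 libraries are tied to each other, so these values cannot decide whether libraries were paired. A fit with the replicate block gave 1919 rises and 2991 falls, of which 1916 and 2988 were also called without it. The replicate block changed no direction. Values near 0 TPM have unknown read support.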

Other observations

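Of 45 replication-type histones tested 21 fell and 1 rose (4 rose and 19 fell after quantile scaling, and 25 fell without stimulated replicate 1 and medium replicate 2), and 13 of the 45 had passed the filter through 1 group alone. *H1f2*, a linker histone, had the largest fall, from 88.02, 75.2 and 79.8 TPM to 3.29, 3.01 and 4.41 TPM. Of 321 Zfp zinc finger genes tested 77 fell (24%, near the 19.8% of all tested genes) and 7 rose (2.18%, against 12.7%), and 39 fell after quantile scaling. Processed pseudogenes rose more often than genes as a whole, 344 of 1299 tested against 12.7% of all genes tested, and 48 fell. A pseudogene and its parent share sequence, so these levels are uncertain. Of 15 host genes of small nucleolar RNAs tested 5 rose and 1 fell, or 3 and 2 without stimulated replicate 1. Of 20 mitochondrial transfer RNAs 12 rose and 1 fell, in the libraries in which 4 of 13 mitochondrial protein genes fell.

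Of 209 immunoglobulin variable segments tested 207 fell, 38 of the 209 having passed the filter through 1 group alone, and their summed share went from 1.39% to 1.56% of TPM in medium to 0.110% to 0.126% after stimulation. Of 134 T cell receptor variable segments tested 31 fell (23.1%, near the share of all tested genes) and none rose, with a share of 0.364% to 0.385% against 0.212% to 0.218%, and 15 fell after quantile scaling. With no fold limit 106 of the 134 were lower at an adjusted p below 0.05, against 40% of all tested genes. Segments of a family share sequence, so single members are uncertain.

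Regulatory T cell markers were mixed, with 6 of 13 rising (46.2%, against 12.7% of all tested genes) and 4 falling (30.8%, against 19.8%). *Lrrc32*, which encodes GARP, rose by 1.53 on the log2 scale, and *Nrp1*, neuropilin 1, and *Klrg1*, a receptor of differentiated cells, fell (log2 fold changes -2.55 and -2.98). Of 8 GIMAP GTPases, which support lymphocyte survival, 1 fell and none rose, and the call on *Gimap8* was lost in several alternatives, among them without stimulated replicate 1. Of 13 polyamine genes 3 rose (23.1%, against 12.7% of all tested genes) and 1 fell (7.69%, against 19.8%). The 6 platelet and 2 stromal markers tested were called lower, but 4 of the platelet markers and 1 of the stromal markers had passed the filter through the medium group alone, so nothing is read from these counts. Of 15 housekeeping genes 5 rose (33.3%, against 12.7% of all tested genes) and 1 fell (6.67%, against 19.8%). Without stimulated replicate 1 and medium replicate 2 the counts were 3 and 0. *Actb*, beta actin, read 5494, 7419 and 5950.1 TPM in medium and 5383, 5707 and 5651 TPM after stimulation and was not called.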
